A study of Homo sapiens with 8 samples.

Results

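The gene expression of MDA-MB-231 cells that carried doxycycline-inducible oestrogen receptor beta was described in cultures that received ethanol, the solvent, for 5 days and no added estradiol. MDA-MB-231 is a breast cancer cell line labelled triple negative, the class that lacks oestrogen receptor alpha, progesterone receptor and amplified ERBB2. The cells were kept under blasticidin S and zeocin, grown to about 80% confluence in phenol red-free medium with 10% charcoal-stripped serum and 100 ng/ml of doxycycline, and given fresh medium on day 3. Every culture thus received the inducer, and the levels below are those of cells given doxycycline and no added ligand. No culture without doxycycline and no parental culture was analysed here, so what the induced receptor or the drug contributes to a level cannot be told apart from the line itself. The labels do not state whether the line is 1 clone or a pool.

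Of the 8 Illumina bead arrays of the series 4 held vehicle RNA, from 3 cultures: culture 3 had a second RNA sample on a repeat array, and its 2 arrays were averaged. A row of the expression table stands for a named gene. It was called detected when its detection p-value, the rank of its signal among negative control beads, was under 0.01 on all 4 arrays. By this rule 9017 of 31412 named rows (28.7%) were detected, and they are the genes described here. A further 3261 rows (10.4%) met the limit on 1 to 3 arrays and 19134 rows (60.9%) on none. The labels do not say whether the cultures were grown independently, so an SD over 3 cultures measures the spread between these samples, which may be technical.

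By way of background, tumour cells of breast origin are sorted by the proteins of the cell layers they resemble. Luminal cells carry keratins 8, 18 and 19, basal cells keratins 5 and 14, and cells that have gone through an epithelial-mesenchymal transition lose E-cadherin and gain vimentin. MDA-MB-231 is known for its mesenchymal form and invasive growth. Oestrogen receptor beta, the product of ESR2, is a nuclear receptor that binds the same DNA elements as the alpha receptor and is otherwise scarce in cultured breast cancer lines.

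The 4 arrays were alike in overall brightness, with median raw signals of 66.3 to 75.4 units and 10172 to 10652 rows detected on each. Pearson correlations across the 9017 detected rows, which are not independent replicates, lay between 0.977 and 0.992. The repeat array of culture 3 stood apart: it differed from the first array of the same culture by over 1 log2 unit in 289 rows (3.21%), whereas the arrays of cultures 1, 2 and 3 differed from each other in 12 to 49 rows. Leaving the repeat array out changed the number of detected genes by at most 1.5 times in every gene list described below. Levels are given as raw signal or as log2 of the background-corrected, quantile-normalized signal, averaged over 3 cultures. The lowest detected signal of a single probe corresponded to a log2 of 5.20 to 5.33 and the brightest row to 14.73, with a median of 8.18 over detected rows. Probes differ in their affinity, so a rank orders the brightness of rows and does not measure how many transcripts of one gene there were against another.

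Detection depended on the kind of row. Of 24130 rows that behaved as a single probe 8033 (33.3%) were detected, against 984 of 7282 rows (13.5%) that combined several probes. In combined rows the deposited detection p did not follow the signal as a rank would. 1657 combined rows (22.8%) reached the lowest signal of a detected single probe on all 4 arrays and still missed the rule, 719 of them on every array. TMSB4X, which encodes the actin-binding peptide thymosin beta 4, was detected on 0 arrays at a log2 level of 13.54 ± 0.14 (SD, n = 3). RPSA, a ribosomal protein, was detected on 1 array at 13.20 ± 0.12 (SD, n = 3). Such rows are called bright but not detected below and are counted apart, because for them a missed detection does not show a low signal.

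Among the 20 brightest rows 8 had a current gene symbol. MT2A, a metallothionein, ranked 3 with raw signals of 29170, 24900, 28040 and 20590 in cultures 1, 2 and 3 and the repeat. ENO1, the glycolytic enolase, followed at rank 4 with 26420, 24940, 26380 and 29150. The others were IER3, an early-response gene, FTL, the ferritin light chain, OAZ1, the antizyme that limits polyamine synthesis, ANXA2P2, a pseudogene of annexin A2, RPL18, and LGALS1, which encodes galectin 1. The remaining 12 rows had provisional LOC names with no current symbol, LOC100130553 and LOC441876 at ranks 1 and 2 among them. Such names made up 1015 of the detected rows (11.3%), and 7579 detected rows (84.1%) were protein-coding. Of all protein-coding rows 40.4% were detected, against 1.96% of microRNA rows.

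**Figure D1:**
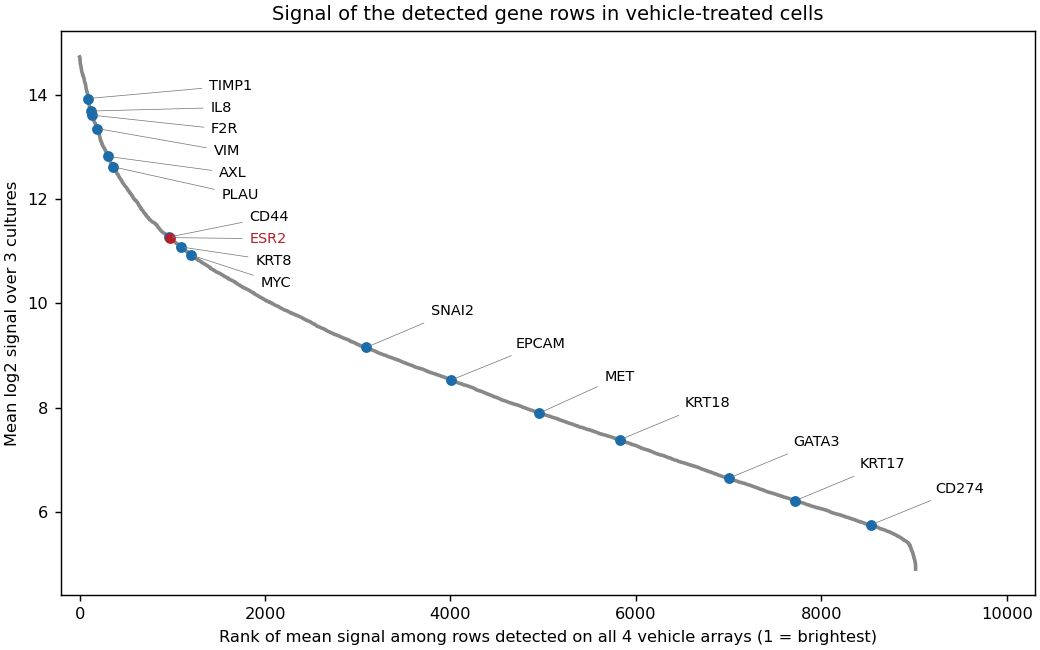
Mean log2 signal over 3 cultures of the 9017 rows detected on all 4 vehicle arrays, against rank (1 is the brightest), with selected genes marked. TIMP1, IL8, F2R and VIM lie within the brightest 200 rows, ESR2 (red) is at rank 970, and GATA3, KRT17 and CD274 lie in the dimmest part of the curve.

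Of 846 genes in 31 lists of lineage, receptor, signalling and housekeeping genes 845 matched a row, and 382 of these (45.2%) were detected, against 28.7% of all rows and 40.4% of protein-coding rows. Another 86 were bright but not detected. The share varied between lists, from 0 of 10 endothelial markers to 57 of 60 ribosomal proteins. Since the lists hold mostly protein-coding genes, 40.4% is the closer reference for the shares below. It does not allow for row kind, and combined rows were detected less often (13.5%) than single-probe rows (33.3%). The lists differ in this, from 6 combined rows among 60 ribosomal proteins to 21 among 25 cancer-testis antigens, with 22 among 41 nuclear receptors. The part of row kind in a low share was not tested.

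**Figure D2:**
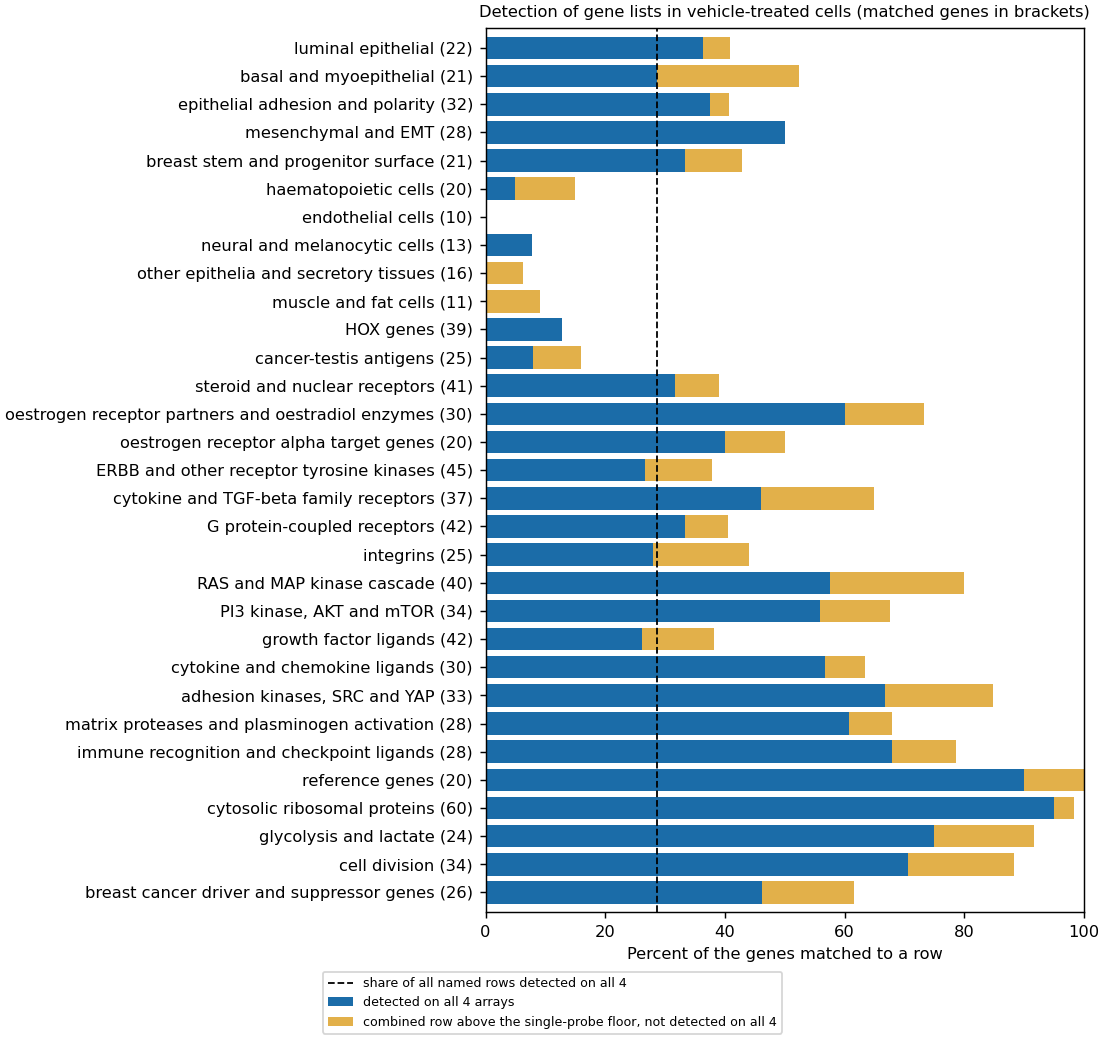
Percent of matched genes of each list detected on all 4 vehicle arrays (blue), with bright combined rows that missed the rule stacked on them (yellow) and the share of all rows (28.7%) as a dashed line. Lists of other cell types, cancer-testis antigens and HOX genes lie furthest below the line, and ribosomal proteins, reference genes and glycolysis reach the highest shares.

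Of 28 genes of the mesenchymal list 14 (50%) were detected, 3 of them among the brightest 10% of detected rows, and the other 14 were detected on no array. VIM, the intermediate filament vimentin, had raw signals of 10730, 10930, 11000 and 9765, a mean log2 of 13.36 ± 0.17 (SD, n = 3) and rank 191. The receptor tyrosine kinase AXL gave 8124, 6921, 6876 and 7260, at rank 304. CD44, the hyaluronan receptor, gave 2833, 2476, 2630 and 2163, at rank 964. All 4 arrays thus read these genes within a narrow range. LGALS1 (14.51 ± 0.12), the membrane linker MSN (10.76 ± 0.09), the collagen gene COL5A1 (10.46 ± 0.03) and the calcium-binding S100A4 (9.28 ± 0.07; SD, n = 3 for each) were detected as well. N-cadherin, CDH2, was present at a lower signal of 7.84 ± 0.24, and fibronectin, FN1, a combined row, was near the floor at 5.21 ± 0.29 (SD, n = 3).

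The transcription factors that drive the mesenchymal state in other systems were mostly below detection. SNAI2, or Slug, was the exception at 9.15 ± 0.29 (SD, n = 3), with raw signals of 572.7, 655.5, 591.6 and 686.1. ZEB1, ZEB2, SNAI1, TWIST1, TWIST2, PRRX1 and FOXC2 were detected on no array, as were the stromal genes SPARC, THY1, COL1A1, COL3A1, POSTN and FAP. An undetected row gives only a bound, and a poor probe cannot be told from a silent gene by these data.

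Epithelial genes were split. CDH1, which encodes E-cadherin, was detected on no array, with raw signals of 68.87, 58.73, 65.92 and 65.88 against lowest detected signals of 93.27, 78.06, 80.55 and 83.57. The epithelial splicing factors ESRP1 and ESRP2, the epithelial transcription factors GRHL1, GRHL2, OVOL1 and OVOL2, occludin (OCLN) and P-cadherin (CDH3) were also detected on none. Of 32 epithelial adhesion genes 12 (37.5%) were detected, a little below the 40.4% of all protein-coding rows. The protease inhibitor SPINT2 was bright at 12.62 ± 0.08, and the tight-junction scaffold TJP3 reached 10.85 ± 0.34 (SD, n = 3 for both). EPCAM, an epithelial surface glycoprotein, gave raw signals of 465.7, 370.5, 462 and 408.4, well above the floor on every array, and CLDN7, a claudin, had a log2 level of 8.02 ± 0.16 (SD, n = 3). The desmosomal cadherin DSG2 (9.62 ± 0.18), the junction scaffold TJP1 (8.38 ± 0.30) and CLDN3 (5.99 ± 0.36) were detected too (SD, n = 3 for each). DSP, desmoplakin, was bright but not detected at 7.16, and the desmosomal genes DSC2 and PKP1 were detected on no array.

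Keratins of luminal type were detected, and of the basal keratins listed KRT17 alone was. KRT19 gave raw signals of 5510, 3641, 4137 and 4536, at rank 564, and KRT8 gave 2901, 1804, 1946 and 2358, at rank 1089. Both were higher on each of the arrays of cultures 1 and 3 repeat, which shared a chip, than on the arrays of the other chip. KRT18, the partner of keratin 8, was a combined row at 7.38 ± 0.17 (SD, n = 3), and KRT7 was at 9.61 ± 0.29 (SD, n = 3). KRT5, KRT14, KRT6A, KRT6B and KRT16 were detected on no array, nor was TP63, the basal transcription factor. KRT17 was dim at 6.21 ± 0.06 (SD, n = 3).

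Beyond the keratins, neither breast layer was represented in full. Against 40.4% of all protein-coding rows, 8 of 22 luminal genes (36.4%) were detected. XBP1, a secretory stress factor (11.24 ± 0.04; SD, n = 3), and MLPH were among them, and GATA3, a luminal master regulator, was dim, with raw signals of 171.5, 137.7, 142.2 and 130. FOXA1, SPDEF, AGR2, AGR3, TFF1, TFF3 and ELF5 were detected on no array. Of 21 basal genes 6 (28.6%) were detected, below the share of protein-coding rows as well. They included the membrane scaffolds CAV1 (11.58 ± 0.10) and CAV2 (9.40 ± 0.20) and the forkhead factor FOXC1 (9.82 ± 0.10; SD, n = 3 for each). Another 5, EGFR, LAMB3, MYLK and ITGB4 among them, were bright but not detected, and at a limit of 0.05 the basal count was 11. ACTA2, smooth muscle actin, was at 8.89 ± 0.19 and OXTR, the oxytocin receptor, at 6.44 ± 0.14 (SD, n = 3 for both).

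**Figure D3:**
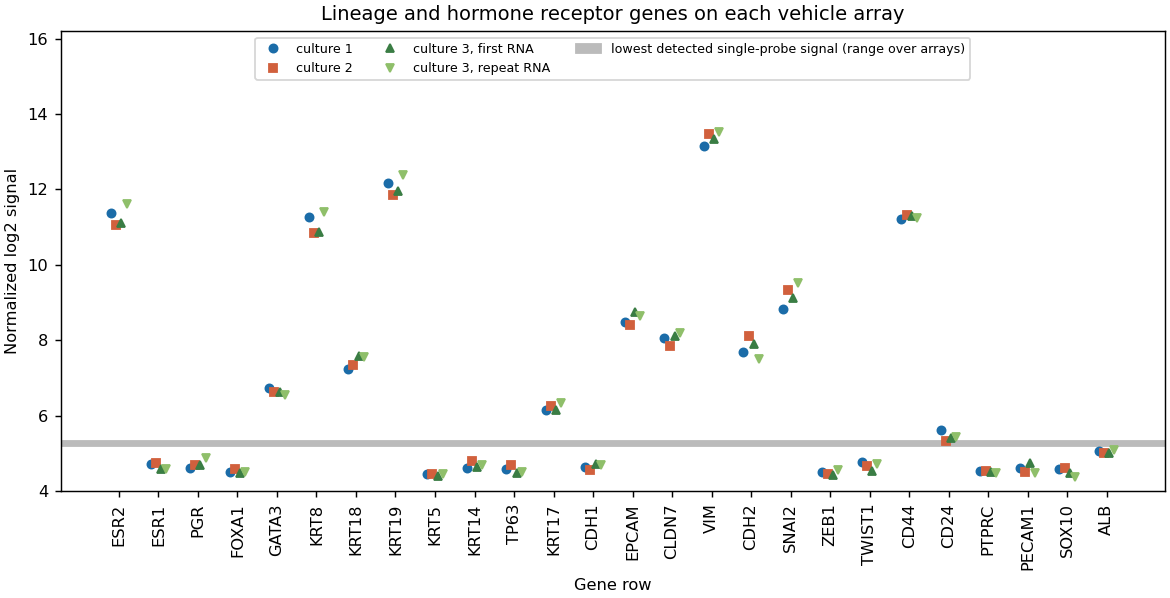
Normalized log2 signal of lineage and hormone receptor genes on each vehicle array, with cultures and the repeat array as separate points and the range of the lowest detected single-probe signal as a grey band. Vimentin and the luminal keratins lie above the lowest detected signal, whereas E-cadherin and keratin 5 lie below it on all 4 arrays.

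The stem and progenitor list held 7 detected genes of 21. Besides CD44 and EPCAM these were NT5E, the surface enzyme CD73 (10.64 ± 0.13), SOX9 (9.66 ± 0.20), BMI1, a Polycomb gene (9.62 ± 0.14), KLF4 (6.77 ± 0.29) and the aldehyde dehydrogenase ALDH1A3 (6.94 ± 0.12; SD, n = 3 for each). CD24 was a bright but not detected row just above the floor at 5.45 ± 0.15 (SD, n = 3). PROM1 (CD133), ALDH1A1 and the pluripotency genes SOX2, NANOG, POU5F1, LIN28A and LIN28B were detected on no array.

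Markers of other cell types were mostly below detection. None of the 10 endothelial genes was detected, PECAM1, CDH5, VWF, KDR and TEK included, and none of the 16 genes of other secretory epithelia or the 11 of muscle and fat was. The former include the liver products ALB, AFP, APOB and TTR and the prostate protease KLK3, and the latter MYOD1, MYOG, DES, MYH1 and ACTA1. Of 20 haematopoietic genes CD68, a lysosomal glycoprotein that is not restricted to blood cells, was the 1 detected (8.87 ± 0.13; SD, n = 3), and PTPRC, CD3E, CD3D and CD4 were not. Of 13 neural and melanocytic genes TUBB3, a tubulin expressed in many carcinoma lines, was the 1 detected (10.96 ± 0.11; SD, n = 3), PMEL was detected on 2 arrays, and the melanocyte genes SOX10, MITF, MLANA, TYR and DCT were on none. Counting bright rows would add CD14 and CD8A, PAX8 and LEP. Summed levels of these lists were not formed, since rows at the floor carry no order.

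Of 39 HOX genes, which specify position along the body axis, 5 were detected (12.8%): HOXD1 at 8.65 ± 0.20 (SD, n = 3), and HOXB7, HOXD3, HOXC13 and HOXB5 at 5.66 to 6.37. HOXA2, HOXA3, HOXA4 and HOXA5 were detected on no array. Of 25 cancer-testis antigens, genes normally kept to the germ line, XAGE1B stood out at 12.16 ± 0.15 (SD, n = 3), rank 531, while MAGEA1, MAGEA2, MAGEA3, MAGEA4, MAGEA6, NY-ESO-1 (CTAG1B) and PRAME were detected on no array. MAGED1 and MAGED2 belong to a MAGE family that is expressed in many normal tissues. MAGED2 was detected at 6.73 ± 0.07 (SD, n = 3), and MAGED1 was bright but not detected at 11.16.

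The median number of CpG dinucleotides was higher in RefSeq promoter windows of detected genes than in those of undetected genes. RefSeq windows of 250 bases before to 50 bases after an annotated start (GRCh38.p14) were available for 10530 of the 13159 protein-coding symbols with a single-probe row. Where a symbol had several windows the first listed was kept. It need not be the main promoter of the gene, and which start these cells use was not tested. The window of a detected gene held a median of 27 CpG dinucleotides (5485 genes), and that of a gene detected on no array 11 (4351 genes). The median over all 27305 windows was 14, but these were not limited to protein-coding genes or single-probe rows, so they are an unlike reference. Of genes with 0 to 2 CpG 9.53% were detected, of those with 11 to 20 55.7%, and of those with 31 or more 67.4%. These are descriptions of a known contrast between housekeeping and tissue-restricted promoters, without a test.

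**Figure D4:**
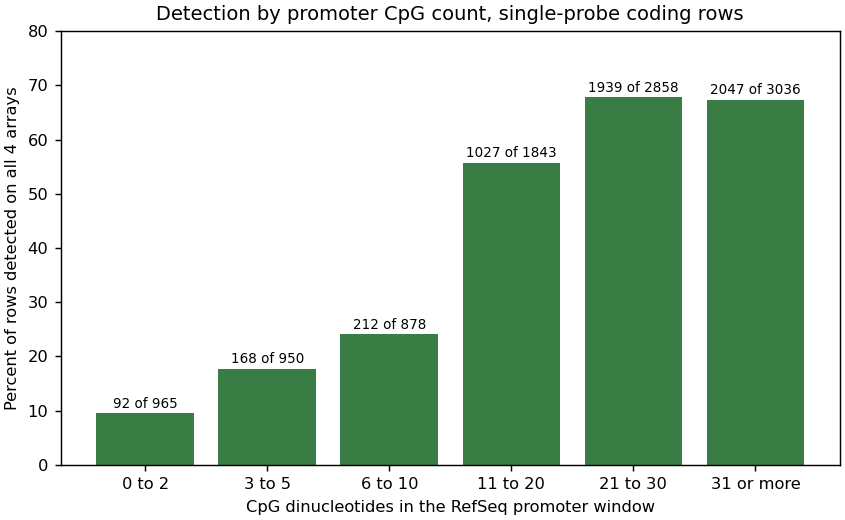
Percent of single-probe protein-coding rows detected on all 4 vehicle arrays, by the number of CpG dinucleotides in the RefSeq promoter window, with counts above the bars. The share rises from 9.53% at 0 to 2 CpG to 67.8% at 21 to 30 and is 67.4% at 31 or more.

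To show what lies behind these counts, 4 windows are printed 5′ to 3′ on the strand of the gene, with each CpG in capitals. They are the windows that were counted, and a gene may have its main start elsewhere. GAPDH is a bright CpG-rich gene (28 CpG) on chromosome 12, and KRT5 an undetected CpG-poor gene (7 CpG) on the same chromosome. CXCL8, on chromosome 4, was bright with 4 CpG, and PGR, on chromosome 11, was undetected with 15. Undetected genes covered a wide range, from 1 to 36 CpG between their 10th and 90th percentiles, against 12 to 41 in detected genes.
GAPDH, chr12:6535014-6535313, plus strand: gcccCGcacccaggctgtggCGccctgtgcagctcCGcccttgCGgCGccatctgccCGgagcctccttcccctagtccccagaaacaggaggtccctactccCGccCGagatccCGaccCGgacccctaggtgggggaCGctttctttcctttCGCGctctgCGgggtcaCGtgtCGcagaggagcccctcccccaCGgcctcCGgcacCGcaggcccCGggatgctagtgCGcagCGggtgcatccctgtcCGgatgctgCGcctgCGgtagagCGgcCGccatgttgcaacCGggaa
KRT5, chr12:52520345-52520644, minus strand: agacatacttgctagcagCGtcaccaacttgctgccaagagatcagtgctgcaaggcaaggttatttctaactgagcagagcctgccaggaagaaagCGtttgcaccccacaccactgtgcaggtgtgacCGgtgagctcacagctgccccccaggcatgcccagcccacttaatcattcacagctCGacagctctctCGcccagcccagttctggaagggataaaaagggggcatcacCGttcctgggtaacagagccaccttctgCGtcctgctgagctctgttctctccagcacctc
CXCL8, chr4:73740319-73740618, plus strand: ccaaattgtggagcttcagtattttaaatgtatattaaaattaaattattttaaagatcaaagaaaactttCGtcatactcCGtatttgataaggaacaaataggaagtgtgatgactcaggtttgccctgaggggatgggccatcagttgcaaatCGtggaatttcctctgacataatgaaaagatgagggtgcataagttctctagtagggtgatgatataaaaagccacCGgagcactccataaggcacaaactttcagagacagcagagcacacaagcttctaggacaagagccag
PGR, chr11:101129028-101129327, minus strand: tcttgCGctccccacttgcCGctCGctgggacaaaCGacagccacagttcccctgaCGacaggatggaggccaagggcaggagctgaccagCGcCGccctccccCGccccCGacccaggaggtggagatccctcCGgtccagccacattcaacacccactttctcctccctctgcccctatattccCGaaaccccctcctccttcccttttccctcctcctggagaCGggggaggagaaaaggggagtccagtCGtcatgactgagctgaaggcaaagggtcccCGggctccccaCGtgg

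Short motifs were counted on both strands of the same windows. GGGCGG, the core of the SP1 element, was in 72.7% of windows of detected genes, 44.5% of those of genes detected on no array and 44.6% of all windows. The last set, here and below, was not limited to protein-coding genes or single-probe rows. The ETS-type CCGGAAG was in 21.5%, 7.19% and 10.7%, and the palindromic NRF1 element in 2.39%, 0.965% and 1.36%. All 3 of these motifs hold CpG and so share letters with the CpG count. TATAAA went the other way, with 5.09%, 15.2% and 12%. CCAAT was at 37.9%, 35.3% and 35.7%, and the AP-1 element TGACTCA at 3.21%, 4.44% and 4.92%. The perfect palindromic oestrogen response element was too rare for the classes to be compared, at 0.0182%, 0.0230% and 0.0659%. Of the windows printed, that of CXCL8 holds TATAAA and TGACTCA, and those of GAPDH and PGR hold GGGCGG.

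ESR2, the gene of the inducible receptor, was detected on all arrays with raw signals of 3163, 2130, 2256 and 2674 in cultures 1, 2 and 3 and the repeat. Its log2 level was 11.26 ± 0.17 (SD, n = 3), which ranked 970 and was brighter than 96.7% of all rows. The 2 arrays of the chip that held culture 1 and the repeat read it 0.41 log2 higher than the other 2. The files do not say whether the probe reads the transgene, the endogenous gene or both. ESR1, which encodes the alpha receptor, gave 72.09, 65.05, 61.63 and 61.1 and PGR 67.63, 63.02, 65.1 and 72.12, below the lowest detected signal on every array. ERBB2 gave 312.3, 244.2, 228.5 and 219.1 and was detected on 1 array; its row combines probes, and its signal was above the floor on all 4.

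Of 41 steroid and nuclear receptors 13 (31.7%) were detected, and ESR2 was the brightest of them. The retinoid X receptors RXRB (10.25 ± 0.09) and RXRA (9.26 ± 0.28), which pair with other nuclear receptors, the orphan receptors NR2F6 (9.56 ± 0.17) and NR2F2 (9.26 ± 0.19) and the sterol receptors NR1H2 and NR1H3 followed (SD, n = 3 for each). Of the oestrogen-related orphan receptors ESRRA was detected at 7.49 ± 0.12 (SD, n = 3), and ESRRB and ESRRG were on no array. PPARG was bright but not detected at 8.75, and so was the glucocorticoid receptor NR3C1, just above the floor at 5.44. The vitamin D receptor VDR, THRA, THRB, RARB and RARG were detected on no array.

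Of 30 oestrogen receptor partners and estradiol enzymes 18 (60.0%) were detected. The chaperones HSP90AB1 (12.40 ± 0.05) and HSP90AA1 (12.15 ± 0.15), which hold steroid receptors in a ligand-binding form, were the brightest, and the coactivator methyltransferase CARM1 reached 10.98 ± 0.06 (SD, n = 3 for each). Of the p160 coactivators NCOA1 (6.73) and NCOA3 (7.77) were bright but not detected and NCOA2 was detected on no array. The corepressor NCOR1 was dim at 6.21 ± 0.01 (SD, n = 3). Among enzymes HSD17B12 (11.28 ± 0.12) and HSD17B4, which oxidises estradiol (9.73 ± 0.09), were present (SD, n = 3 for both). CYP19A1, the aromatase, HSD17B1, HSD17B2 and SULT1E1 were detected on no array. The G protein-coupled oestrogen receptor GPER1, a combined row, was at 7.57 ± 0.12 (SD, n = 3).

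Genes known as alpha receptor targets were detected in 8 of 20 cases (40.0%), much the same as the 40.4% of all protein-coding rows. CCND1, cyclin D1, was the brightest, with raw signals of 7221, 5742, 5495 and 5254, followed by IGFBP4 (10.97 ± 0.15) and MYC (10.93 ± 0.05; SD, n = 3 for both), genes with many other inputs, the protease CTSD (8.73 ± 0.21) and the corepressor NRIP1 (7.22 ± 0.12; SD, n = 3 for both). TFF1, PGR, GREB1, PDZK1, STC2 and AREG were detected on no array.

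Receptor tyrosine kinases were detected in 12 of 45 cases (26.7%), against 28.7% of all rows and 40.4% of protein-coding rows. AXL was the brightest. After AXL came RYK (8.34 ± 0.26), the ephrin receptor EPHA2 (8.32 ± 0.10), the hepatocyte growth factor receptor MET (7.89 ± 0.16) and EPHB4 (7.69 ± 0.18; SD, n = 3 for each). TYRO3 and MERTK, the relatives of AXL, were at 7.36 and 5.84. EGFR gave raw signals of 320.6, 213.8, 244.8 and 214.8 and was detected on 3 arrays. Of its relatives ERBB3, a combined row, was at the floor at 5.32 ± 0.11 (SD, n = 3), and ERBB4 was detected on no array. IGF1R, INSR, FGFR1, FGFR2, FGFR3, FGFR4, PDGFRA and KIT were detected on none. Of the ligands of AXL, PROS1 was detected at 6.70 ± 0.16 (SD, n = 3) and GAS6 was bright but not detected at 7.97.

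Cytokine and TGF-beta family receptors were detected in 17 of 37 cases (45.9%), with 7 more bright but not detected. The death receptor TNFRSF21 (11.91 ± 0.01), the interferon gamma receptor chain IFNGR2 (11.52 ± 0.05) and the TWEAK receptor TNFRSF12A (10.75 ± 0.07) were the brightest, followed by IL13RA1 (10.20 ± 0.11) and the TNF receptor TNFRSF1A (10.04 ± 0.14; SD, n = 3 for each). IL4R (6.89) and IL1RAP (5.65) were bright but not detected. TGFBR2, which met the limit on 3 arrays, was likewise bright but not detected at 9.89. TGFBR1 was near the floor at 5.11 and met the limit on 2 arrays. IL6R, LIFR, FAS and IL1R1 were detected on no array, and IL6ST, the shared signal chain of the interleukin 6 family, on 2.

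The brightest G protein-coupled receptor of the list was F2R, the thrombin receptor PAR1. It gave 13260, 12100, 12720 and 12840, a log2 level of 13.62 ± 0.12 (SD, n = 3) and rank 136. The adenosine receptor ADORA2B (10.88 ± 0.07) and the PAR2 gene F2RL1 (9.79 ± 0.18; SD, n = 3 for both) followed among 14 detected of 42 (33.3%). FZD2, a WNT receptor, was at 9.40 ± 0.28 and P2RY11, a purine receptor, at 8.47 ± 0.12 (SD, n = 3 for both), and the other PAR genes F2RL2 and F2RL3 were detected on no array. The chemokine receptors CXCR4, ACKR3, CCR7, CXCR1 and CXCR2 were detected on no array.

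Integrins, the matrix receptors, were detected in 7 of 25 cases (28.0%), and this count depended on the limit, being 12 at 0.05. ITGA5 (10.01 ± 0.03), ITGAE (9.63 ± 0.08), ITGAV (9.31 ± 0.13) and ITGA2 (8.57 ± 0.03) led (SD, n = 3 for each). The beta chains ITGB1 (10.84) and ITGB5 (10.31), and the alpha chain ITGA3 (10.43), were bright combined rows that missed the rule. ITGB2 (6.55 ± 0.05), ITGA4 (5.96 ± 0.08) and ITGA1 (5.86 ± 0.20) were dim (SD, n = 3 for each). ITGB3, ITGB6, ITGB8, ITGA6, ITGA7, ITGA8, ITGA11 and ITGA2B were detected on no array.

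Of 40 genes of the RAS and MAP kinase cascade 23 (57.5%) were detected and 9 more were bright but not detected. RRAS (11.97 ± 0.09) and the kinase MAP2K1 (11.44 ± 0.11) were brightest, with MAP2K2 at 9.18 ± 0.11 and the kinase MAPK3 at 9.36 ± 0.15 (SD, n = 3 for each). The phosphatase PTPN11, which relays receptor signals, was at 10.25 ± 0.05, HRAS at 8.82 ± 0.04 and NRAS at 8.79 ± 0.19 (SD, n = 3 for each). The adaptor GAB2 was bright but not detected at 6.19, and BRAF, KSR1, GAB1 and NF1 were detected on no array. Genes that the pathway is known to induce were present: the phosphatases DUSP5 (10.88 ± 0.06) and DUSP6 (8.40 ± 0.42), the AP-1 subunit FOSL1 (9.85 ± 0.15), the ETS factors ETV5 and ETV4 (9.43 ± 0.15 and 7.94 ± 0.15) and the inhibitor SPRED1 (10.63 ± 0.12; SD, n = 3 for each).

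PI3 kinase, AKT and mTOR genes were detected in 19 of 34 cases (55.9%). RPS6, a target of the pathway's S6 kinases and a ribosomal protein, was the brightest, followed by the mTOR activator RHEB (12.43 ± 0.16), the regulatory subunit PIK3R2 (11.49 ± 0.09), AKT1 (10.85 ± 0.17) and the S6 kinase RPS6KB2 (10.74 ± 0.02). The catalytic subunits PIK3CD and PIK3CB were at 7.70 ± 0.20 and 6.06 ± 0.20. The phosphatase INPP4B, which opposes the pathway, was at 9.33 ± 0.16 (SD, n = 3 for each). PIK3CA, PIK3CG, PIK3R1, PIK3R3, INPP5D and AKT2 were detected on no array.

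Adhesion kinase, SRC and YAP genes were detected in 22 of 33 cases (66.7%). CYR61 (now CCN1), a YAP-induced matrix protein, gave 12440, 10610, 10500 and 11940, at rank 171, and its relative CCN2 reached 12.15 ± 0.16 (SD, n = 3). The kinase ROCK2 was at rank 258, and the small GTPases RHOC (12.93 ± 0.07) and RHOA (12.39 ± 0.15) were also bright (SD, n = 3 for both). YAP1 itself was at 9.05 ± 0.15 and the focal adhesion kinase PTK2 at 10.54 ± 0.14 (SD, n = 3 for both). SRC and its relative YES1 were at 6.06, bright but not detected, and 7.84 ± 0.25 (SD, n = 3). The adhesion kinase ILK was also bright but not detected, at 11.04. PTK2B was detected on 2 arrays, and ROCK1 and LATS1 on none.

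Inflammatory ligands were among the brightest rows of all. IL8, the neutrophil chemokine now called CXCL8, gave 15200, 12570, 13370 and 11950, at rank 122. IL6 gave 10180, 8702, 8258 and 8062, at rank 231, and CSF2, which encodes GM-CSF, gave 6989, 5906, 5378 and 4738, at rank 405. Each had its highest raw signal in culture 1, whose array also had the highest median signal. In all 17 of 30 cytokines and chemokines (56.7%) were detected, IL18, IL1A, CXCL1 and IL1B included at 12.40 ± 0.08, 11.37 ± 0.06, 10.47 ± 0.41 and 10.42 ± 0.17 (SD, n = 3 for each). TNF was near the floor at 5.86 ± 0.07 (SD, n = 3), and CCL2, CXCL3, CXCL5, CXCL6, CXCL12, CSF1 and CSF3 were detected on no array.

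Growth factors were detected in 11 of 42 cases (26.2%), the lowest share of the signalling lists. Besides CCN1 and CCN2 the lymphatic factor VEGFC (10.87 ± 0.17), progranulin (GRN, 10.31 ± 0.06), HBEGF (9.77 ± 0.20) and TGFA (7.29 ± 0.15), both EGFR ligands, and PDGFC (9.13 ± 0.38) were present (SD, n = 3 for each). NRG1, a ligand of ERBB3, was bright but not detected at 5.94, and EREG was detected on 1 array. AREG, BTC, EPGN, EGF, HGF, IGF1, IGF2, FGF1, FGF2 and TGFB1 were detected on no array.

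Of 28 genes of matrix proteases and plasminogen activation 17 (60.7%) were detected. TIMP1, a metalloprotease inhibitor, was the brightest with 21130, 13150, 17780 and 11700, lower in raw signal in culture 2 and on the repeat array than on the other 2. The plasminogen activator PLAU gave 8146, 6135, 5170 and 5600, and its receptor PLAUR (9.55 ± 0.06) and the second activator PLAT (10.78 ± 0.02; SD, n = 3 for both) were detected. So were the inhibitor SERPINE2 (11.60 ± 0.08; SD, n = 3) and the cathepsin CTSL, at rank 1196. MMP1 varied more, at 9.60 ± 0.43 (SD, n = 3). MMP2, MMP7, MMP9, MMP10 and MMP13 were detected on no array and MMP14 on 1.

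Of 28 immune recognition genes 19 (67.9%) were detected. The class I chain HLA-B (11.98 ± 0.07) and its light chain B2M (13.03 ± 0.34) were bright (SD, n = 3 for each), and HLA-C was a bright but not detected row near the floor at 5.71. HLA genes are near-identical and polymorphic, so a probe may read several or miss an allele. CD274, the checkpoint ligand PD-L1, was detected close to the floor at 5.74 ± 0.20 (SD, n = 3). HLA-E (11.59 ± 0.19) and the stress ligand MICB (11.20 ± 0.13), both read by natural killer cells, were bright (SD, n = 3 for both), and PVR was bright but not detected at 7.58. PDCD1LG2, VTCN1, CD80, CD86 and IDO1 were detected on no array.

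Reference genes were detected in 18 of 20 cases (90%), and the other 2, RPLP0 (12.46) among them, were bright but not detected. Among the brightest were the elongation factor EEF1A1 at rank 42 and the tubulin TUBA1B (14.12 ± 0.14), and HPRT1 (10.88 ± 0.15) and TBP (8.90 ± 0.04) were lower (SD, n = 3 for each). ACTB gave 14810, 13030, 12470 and 14580 and GAPDH 13900, 10810, 11020 and 10750. The SD of GAPDH over cultures was 0.04 log2, but 0.11 without the repeat array and 0.21 without normalization. Of 60 ribosomal proteins 57 (95.0%) were detected, from RPL18 at 14.52 ± 0.08 (SD, n = 3) to RPL37 at 6.20 ± 0.21 (SD, n = 3). RPLP2, RPS19, RPS12 and RPS25 followed RPL18 at ranks 27, 28, 29 and 34, and RPL3, RPL4, RPL5 and RPL6 lay at ranks 186, 300, 637 and 153. RPL10, a combined row, was at background on all 4 arrays. Ribosomal proteins have many pseudogenes, so their rows may read more than 1 locus.

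Of 24 genes of glycolysis and lactate handling 18 (75.0%) were detected. LDHA (13.89 ± 0.12), TPI1 (12.88 ± 0.05), the glucose transporter SLC2A1 (12.69 ± 0.05) and PFKP (12.51 ± 0.15) were bright beside ENO1 and GAPDH (SD, n = 3 for each). GPI was at 11.34 ± 0.08 and the hexokinase HK2 at 7.44 ± 0.24 (SD, n = 3 for both), while HK1 (11.25) and PFKL (8.34) were bright but not detected. The lactate exporter SLC16A3 gave 3808, 2249, 1750 and 919.4, a 0.67 log2 SD over cultures, and its relative SLC16A1 was detected on no array.

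Of 34 cell division genes 24 (70.6%) were detected, and the anaphase activator CDC20 was the brightest at 13.35 ± 0.03 (SD, n = 3). The cyclins CCND3 and CCND1 followed at ranks 393 and 398, then the kinase AURKA (12.21 ± 0.07) and the topoisomerase TOP2A (11.55 ± 0.09; SD, n = 3 for both). The replication helicase gene MCM2 was at 8.54 ± 0.14 (SD, n = 3). CCNE2 was bright but not detected at 6.48, and CCND2 was detected on no array. MKI67 was dim at 5.94 ± 0.06 (SD, n = 3), and PCNA and CDKN1A were bright but not detected at 8.36 and 11.91. CDKN2A and CDKN2B, neighbouring inhibitor genes on chromosome 9, were detected on no array, with signals of 62.15 to 65.85 and 60.69 to 70.99, and nor was MTAP, which lies beside them, with 58.56 to 83.35. Of 26 breast cancer driver and suppressor genes 12 (46.2%) were detected. MYC gave 2263, 1963, 1887 and 1851. SMAD4 (8.98 ± 0.14), MAP3K1 (8.83 ± 0.48), BAP1 (8.51 ± 0.17) and RB1 (5.93 ± 0.09) were detected (SD, n = 3 for each), as was BRCA1, a combined row near the floor at 5.77 ± 0.07 (SD, n = 3). BRCA2, CHEK2, MDM2, NF1 and NF2 were not on any array.

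Most detected rows varied little between cultures. The SD over 3 cultures had a median of 0.14 log2 and a 90th percentile of 0.29, and 72 rows (0.798%) exceeded 0.5. That count was 42 without culture 1, 75 without culture 2, 290 without culture 3, and 330 when the repeat array alone stood for culture 3. Of the 15 most variable rows 4 were noncoding RNAs: SNORA12 (482.6, 140.2, 191.8 and 87.84), SNORD13 (748.4, 178.2, 345.8 and 130.5) and SNORD3A (428.9, 173, 236.4 and 128), which guide or process ribosomal RNA, and TERC, the telomerase RNA (351, 135.5, 250.9 and 93.42). Each was highest in culture 1 and lowest on the repeat array. The histone gene HIST1H4C (now H4C3) ran the same way with 18460, 7143, 13930 and 3158, as did ACTN4 with 3834, 1423, 2688 and 1014. The rest of the 15 most variable rows were UHMK1, TGFBRAP1, MSL3L1, ITPRIPL2, SLC16A3, NPDC1, C19orf51, LOC100134273 and LOC100129379, with SDs of 0.64 to 0.83. Among them UHMK1, MSL3L1, ITPRIPL2, SLC16A3 and LOC100134273 were also highest in culture 1 and lowest on the repeat array, so the pattern was not particular to noncoding RNA.

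The repeat array of culture 3 differed from the first array mostly in 1 direction: 280 rows (3.11%) were over 1 log2 lower on the repeat and 9 were over 1 log2 higher. Of the rows with LOC names and no current symbol 145 of 1015 (14.3%) were that much lower, of pseudogenes 16 of 139 (11.5%), of ribosomal proteins 7 of 80 (8.75%), and of other protein-coding rows 99 of 7487 (1.32%). RPS28, a ribosomal protein, had a raw signal of 2084 on the first and 448.3 on the repeat array, and MT1G, a metallothionein, 806.2 and 204.4. The largest gap was that of LOC645979, with 408.7 and 95.19, followed by LOC100129379, with 3290 and 498.1. Of the 15 rows with the largest gap RPS28 and MT1G alone had a current symbol. On cultures 1 and 2 RPS28 read 1572 and 1484, so for this gene the repeat array was the one apart. The 9 higher rows were APP, COQ7, CTSZ, HPS3, MTCH2, PPP3R1, SIPA1L1, ZNF426 and LOC732432. ACTB was 0.66 and ESR2 0.50 log2 higher on the repeat, relative to the other rows of that array, and stayed higher under each of the other 6 settings of background and normalization, by 0.23 to 0.68 and 0.25 to 0.60. The part of RNA quality or labelling in these differences was not tested.

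**Figure D5:**
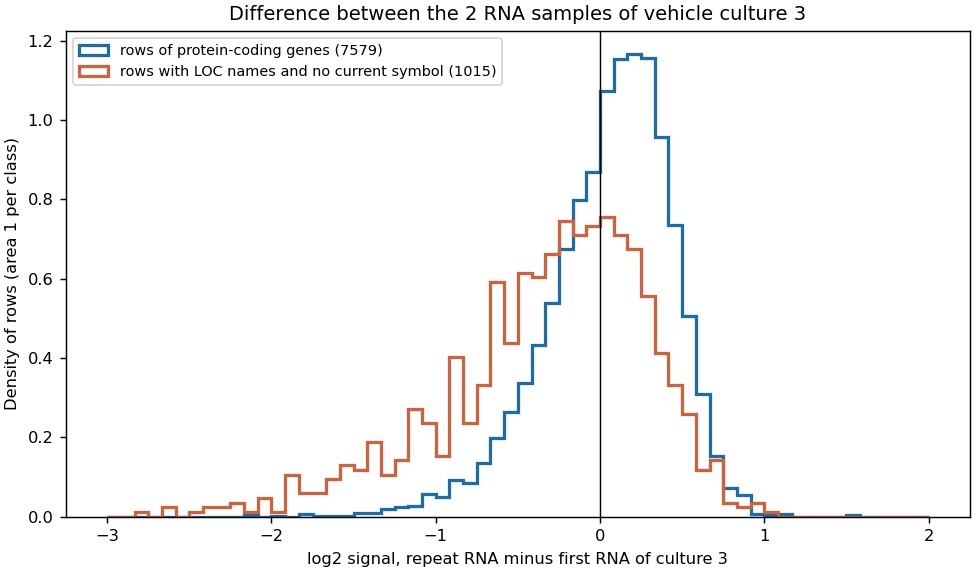
Density of detected rows by log2 signal on the repeat minus the first array of culture 3, for 7579 protein-coding rows (blue) and 1015 rows with LOC names and no current symbol (orange), each with area 1. The protein-coding rows peak just above 0, and the LOC rows have a median of -0.22 and a tail that reaches -2.79.

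Cultures 1 and 3 repeat shared a chip, as did cultures 2 and 3. Arrays of the same chip were not always the more alike: the correlation was 0.983 between culture 1 and the repeat on the same chip and 0.991 between cultures 1 and 3 on different chips. In 1864 detected rows (20.7%) both arrays of the first chip were above both of the second, and in 1388 (15.4%) both were below. With 2 arrays per chip, 1 in 3 orderings of the arrays split them this way in either direction. The counts therefore do not show a chip difference by themselves, and the part of the chip was not tested. The 10 rows with the largest chip difference were all lower on the first chip and most had LOC names, LOC645979 and LOC391370 the first among them. SAA2, an acute-phase protein, was the named gene among them, with 343.8 and 149.5 on the first chip and 490.3 and 429.2 on the second. Since the repeat array lies on the first chip, its own difference is part of each of these.

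The rows nearest the detection limit were combined rows, in which the detection p does not follow the signal, and all 6 were dimmer than the median detected row. Just inside it were TADA2A, FBXO11 and AKAP13, with highest detection p-values of 0.00996, 0.00991 and 0.00986 and log2 levels of 5.19, 7.88 and 6.68. Just outside were AFF1, MIER1 and RAP1A, each at 0.01002, with levels of 6.12, 7.41 and 5.33.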

How the data were processed

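Total RNA was extracted with Trizol and labelled with biotin for bead arrays (Illumina), per the labels' protocols. The authors deposited a table of linear signal intensity with a detection p-value per gene row and array, without normalization between arrays, and a second table of intensities they normalized with a procedure that the labels and headers do not name; the second served as an alternative. Of 34678 rows 3266 were blank and left out. Rows whose detection p-values were whole multiples of 1 in 770 on every array (tolerance 0.002) were taken as single probes (24130), the others as combined (7282).

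With R 4.3.3 and limma 3.58.1, signals of the 4 vehicle arrays were background-corrected (normexp, negative controls inferred from single-probe rows: mean 59.2 to 65.5, SD 7.61 to 11.4), given an offset of 16, quantile normalized, log2 transformed and averaged per culture. The offset compresses dim rows. The 4 arrays limit the precision. Background correction and normalization were run on simulated single-probe rows with known levels. The simulation held no combined rows and no array like the repeat, so it does not bear on those. Symbols were updated through the GRCh38.p14 gene table: 17757 row names were current, 3283 matched 1 synonym and 10372 did not match. Cultures follow the sample titles.

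No comparison was tested. Members and lists were chosen with earlier results of these data known. Named were ESR2, the 20 brightest rows, up to 5 brightest and 5 undetected members per list with its first 4 members, the 15 rows of largest SD, the 15 of largest repeat difference, 10 of largest chip difference and 3 rows on each side of the limit; rows with provisional LOC names and no symbol are named in part. Further members in the text were picked with their values in view. Some genes that these rules take are not reported here. Alternatives covered the detection limit, background, normalization, the repeat array, each chip and each culture.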

Additional observations from a re-analysis of the deposited data

How the results depend on the processing

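No paired analysis was possible because the vehicle cultures were not compared with another group. The number of detected rows stayed within 1.5 times of 9017 under every alternative run, between 6121 and 12278, as did the number of listed genes among the brightest 10% of rows, between 216 and 221. The number of rows with an SD over 0.5 (72) moved more. It was 214 without normalization, 19 without background correction, 32 with a background taken from every row, 21 in the values the authors normalized, 330 without the first array of culture 3, and 483 with the arrays of culture 1 and the repeat alone. Leaving out 1 culture in turn gave 42 to 290. Median centring gave 82, all 8 arrays 77, leaving out the repeat array 89 and the other chip alone 107. An alternative added after the data were seen recounted the rows over 1 log2 lower on the repeat array (280): the count ran from 159 in the authors' values to 411 without normalization, and the median of LOC rows was below that of protein-coding rows in each of the 7 settings. The median of protein-coding rows was -0.05 without normalization and 0.02 to 0.11 in the others. Of the values for single genes and lists, 483 moved by less than the spread between cultures or within 1.5 times and 105 by more. Levels of dim rows such as NR3C1 and MKI67 moved with the background: NR3C1 went from 5.44 to 6.48 without background correction and 7.46 with a background taken from every row, and MKI67 from 5.94 to 6.75 and 7.49, while their percentiles among all rows stayed at 65.4 to 65.5 and 69.4 to 69.5 under these settings. The cause of these shifts was not tested.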
